A study of Mus musculus with 20 samples.

Results

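A set of 10 genes that carry fat into cells and store it was followed in the kidneys of mice with Alport syndrome, a hereditary disease of the type IV collagen of the glomerular basement membrane. The genes were Cd36, Vldlr, Msr1, Apoe, Lpl, Angptl4, Fabp1, Fabp3, Dgat2 and Plin2, picked by symbol as 10 of the 47069 genes of the deposited count table. All 10 passed the filter on low counts that left 17622 genes for testing. Kidney RNA was sequenced from 20 mice on a 129SJ x C57Bl/6J background: 5 untreated wild-type mice (WT), and 15 mice that all lacked a working Col4a3 gene (F1-Col4a3-/-). Of these, 6 were given weekly PBS under the skin (Veh), 6 were given lademirsen, an oligonucleotide that blocks miR-21, at 50 mg/kg weekly (anti-miR-21), and 3 drank ramipril, an inhibitor of the angiotensin-converting enzyme (ACEi), beside PBS injections. The knockout mice were dosed from week 5 of life, and kidneys were collected in week 15. For ramipril the labels give 11 mg/L of drinking water, whereas the library table gives 4 mg/kg. Whole kidneys were used, so each value mixes all cell types of the organ.

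Proximal tubule cells of the kidney burn mostly fatty acids and take them up from blood and from filtered albumin. Fatty acids reach cells through surface carriers such as CD36, or are freed from circulating triglyceride by lipoprotein lipase. Inside the cell they are held by fatty acid binding proteins and then burned or built into triglyceride by DGAT enzymes and stored in droplets coated by perilipins, while macrophages also take up modified lipoproteins through scavenger receptors. Many of these genes are known targets of PPAR receptors, which pair with RXR and bind a direct repeat of AGGTCA spaced by a single base, and Ppara is a known target of miR-21.

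Short promoter stretches with the closest match to this repeat are given to show the letters through which PPAR and RXR could bind near the members' start sites, with the matched bases in capitals. A RefSeq promoter entry (GRCm38.p6) was found for 6 of the 10 genes, namely Cd36, Vldlr, Apoe, Fabp1, Fabp3 and Plin2. This motif, AGGTCA followed by any base and again by AGGTCA, was searched on both strands with up to 2 mismatches and was found for Cd36, Fabp1 and Plin2, 3 of those 6, against 4.4% of the 27025 genes with an entry (3.86% of 32851 promoters). Each of the 3 matches reads as the reverse complement of the repeat on the printed strand, which is that of the gene. They began 63, 67 and 225 bases upstream of the start for Cd36, Fabp1 and Plin2, with 2, 1 and 2 mismatches. The Cd36 entry (bases 17835847 to 17836146) lies inside the annotated gene (17781690 to 17888801, minus strand). Its start is therefore not the most upstream end of that gene.
Cd36 promoter, chr5:17835907-17835999, minus strand: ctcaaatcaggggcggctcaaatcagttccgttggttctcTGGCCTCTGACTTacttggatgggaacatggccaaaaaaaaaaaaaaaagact
Fabp1 promoter, chr6:71199772-71199864, plus strand: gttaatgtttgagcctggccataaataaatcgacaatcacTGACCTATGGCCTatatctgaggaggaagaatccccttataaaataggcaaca
Plin2 promoter, chr4:86670232-86670309, minus strand: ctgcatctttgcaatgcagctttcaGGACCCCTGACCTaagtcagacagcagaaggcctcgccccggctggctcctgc
The 3 genes that share this match had 3 different patterns, since Cd36 was lower in Veh kidneys, Plin2 was higher, and Fabp1 was near the limit of detection.

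The RNA that lademirsen blocks is shown with its seed, bases 2 to 8, in capitals, since the seed is the part that pairs with a target.
mmu-miR-21a-5p, chr11:86584120-86584141, minus strand: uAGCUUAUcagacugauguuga
The DNA letters that pair with the seed, ATAAGCT, were present in the longest annotated 3′ UTR of 1 of the 10 genes, Vldlr, at base 4284 of 5094, and in that of the regulator Ppara at base 574 of 1564. Of 21669 genes with a 3′ UTR, 6.91% held this run of letters. Their median 3′ UTR was 911 bases, shorter than those of Vldlr and Ppara, so this share is not matched for length.
Vldlr site: tccaaaccaaATAAGCTtgctgccatg
Ppara site: gaatagtttgATAAGCTatcccatcac
Both genes were lower in Veh than in WT kidneys and higher in anti-miR-21 and in ACEi than in Veh kidneys, with the values given below. The match is a description of the letters and was not tested as a site.

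Between 28474301 and 29479629 estimated counts on genes were deposited per mouse, so depth hardly differed between groups. Values are given as CPM, the counts relative to a library total of fixed size, scaled with TMM factors that ran from 0.771 to 1.26. These factors differed by group, at 0.771 to 0.85 in WT, 1.12 to 1.26 in Veh and 0.881 to 1.05 in the treated mice. Differences between groups therefore depend on this scaling. Col4a3 itself was at 194 to 238 CPM in the WT mice and 27.9 to 74.9 CPM in the 15 knockout mice, as the genotype labels state. All 6 proximal tubule markers were detected in every mouse, as kidney should give, although the extraction text of the labels speaks of adipose tissue. The 6 adipocyte markers summed to 363, 373 and 419 CPM in the Veh mice A9, A4 and A1 and to 231 CPM in the anti-miR-21 mouse A12, and were at most 58.7 CPM in the other 16 mice. Results that rest on those 4 mice are given with and without them. In whole-kidney RNA, fewer cells of a type and less RNA per cell cannot be told apart.

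Veh against WT asks how the kidneys of F1-Col4a3-/- mice given PBS alone differ in lipid handling from those of healthy mice, which had no injections, so genotype and injection cannot be told apart. In Veh kidneys 5 of the 10 genes were lower: the fatty acid carrier Cd36 by 8.71-fold, the lipase Lpl by 7.18-fold, the triglyceride enzyme Dgat2 by 3.5-fold, the binding protein Fabp3 by 2.79-fold and the lipoprotein receptor Vldlr by 1.83-fold. The lipoprotein ligand Apoe was 9.75-fold higher, the macrophage scavenger receptor Msr1 46.9-fold higher and the droplet coat Plin2 2.07-fold higher. Thus 3 of the 10 genes rose and 5 fell, while Angptl4 and Fabp1 did not pass the test, and in the same comparison 73% of all genes tested were called (39% higher and 34% lower). For all 8 called genes no Veh mouse overlapped a WT mouse, which also held for 54.9% of all genes. The median absolute log2 fold change was 1.64 over the 10 genes and 0.65 over all genes tested.

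**Figure D1:**
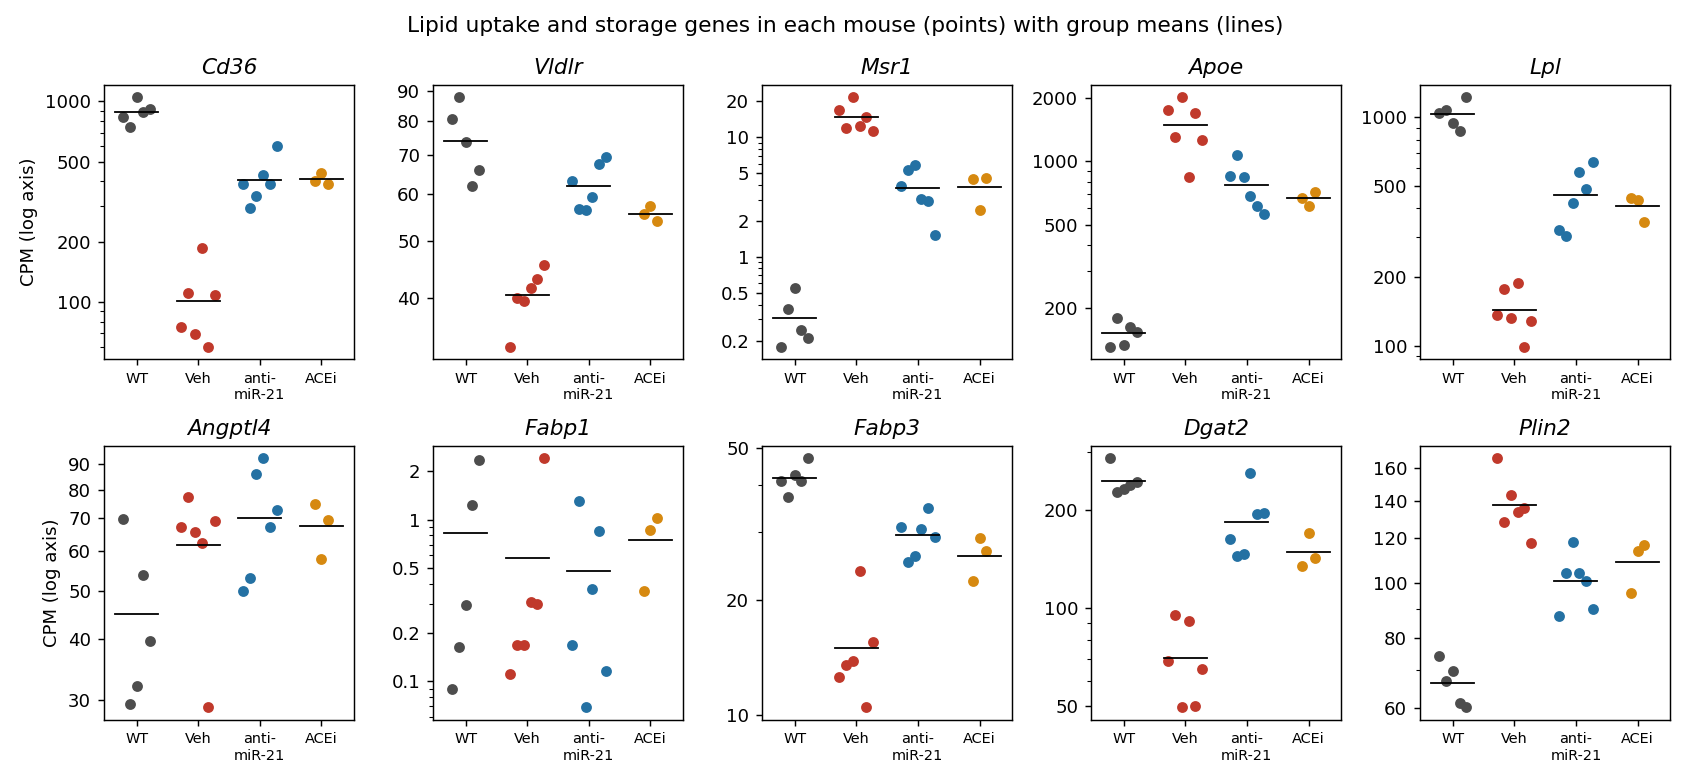
Level of each of the 10 genes in CPM on a log axis, with 1 point per mouse and a line at each group mean, for 5 WT, 6 Veh, 6 anti-miR-21 and 3 ACEi mice. The Veh points of Cd36, Lpl, Dgat2, Fabp3 and Vldlr lie below all WT points and those of Msr1, Apoe and Plin2 above them, the treated points mostly lie between, and the groups overlap for Angptl4 and Fabp1.

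Cd36 encodes the main fatty acid translocase of the cell surface. Its level in the 5 WT mice was 837 CPM in A3, 747 in A6, 1048 in A14, 882 in A17 and 917 in A18. In the 6 Veh mice the lowest was 60.2 CPM (A19), the median 91.8 and the highest 187 CPM (A16). Every WT mouse was thus above every Veh mouse, and A16 stood out at the upper end of the Veh group. The log2 fold change was -3.12 (SE 0.24, adjusted p = 3.71e-10). The anti-miR-21 mice lay between 294 CPM (A8) and 599 CPM (A22) with a median of 389 CPM, and the 3 ACEi mice were at 401 CPM (A11), 438 CPM (A13) and 387 CPM (A23). All 9 treated mice lay above the highest Veh and below the lowest WT mouse, with a log2 fold change against Veh of 2.0 (SE 0.22, adjusted p = 3.46e-07) after anti-miR-21 and 2.01 (SE 0.25, adjusted p = 1.6e-05) under ACEi.

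Vldlr encodes the very low density lipoprotein receptor, which binds triglyceride-rich particles. The WT mice had 80.6 CPM in A3, 87.7 in A6, 73.5 in A14, 61.9 in A17 and 66.1 in A18, against 33 CPM (A1) to 45.4 CPM (A20) with a median of 40.8 CPM in Veh. The change was smaller than that of Cd36, at -0.87 on the log2 scale (SE 0.09, adjusted p = 2.47e-08), but the ranges were clear of each other. Anti-miR-21 mice ranged from 56.5 CPM (A10) to 69.4 CPM (A22) with a median of 61.2 CPM, and the ACEi mice had 55.6, 57.3 and 53.9 CPM in A11, A13 and A23. Both treated groups lay wholly above Veh, by 0.62 (SE 0.09, adjusted p = 4.39e-06) and 0.46 (SE 0.10, adjusted p = 0.00159) on the log2 scale. The size of this change varied with the scaling. When counts were scaled by library totals only, Vldlr differed from WT by -0.29 (adjusted p = 0.00554), and the ACEi difference of 0.19 was no longer called (adjusted p = 0.129).

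Msr1 encodes the class A scavenger receptor of macrophages. It was close to the floor in WT, with 4 counts in A3, 9 in A6, 13 in A14, 6 in A17 and 5 in A18 (0.178 to 0.549 CPM), and at 11.2 CPM (A20) to 21.5 CPM (A9) with a median of 13.7 CPM in Veh. The log2 fold change of 5.55 (SE 0.37, adjusted p = 7.97e-11) was the largest of the 10 in size, and its denominator rests on few counts. Treated mice again fell between, at 1.51 CPM (A22) to 5.8 CPM (A10) with a median of 3.45 CPM after anti-miR-21, and at 4.49, 2.47 and 4.53 CPM in the ACEi mice A11, A13 and A23. Against Veh, Msr1 was lower by 3.92-fold (log2 -1.97, SE 0.26, adjusted p = 2.39e-06) and 3.85-fold (log2 -1.95, SE 0.34, adjusted p = 0.000169), and no treated mouse reached either the Veh or the WT range.

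Apoe encodes apolipoprotein E, the ligand through which cells take up lipoprotein remnants. Its levels were 131 CPM in A3, 180 in A6, 134 in A14, 163 in A17 and 153 in A18 among WT mice, and 844 CPM (A16) to 2019 CPM (A9) with a median of 1504 CPM in Veh. The Veh mouse with the lowest Apoe, A16, was the one with the highest Cd36. The log2 fold change was 3.28 (SE 0.21, adjusted p = 3.96e-11). After anti-miR-21 Apoe stood between 561 CPM (A22) and 1075 CPM (A8) with a median of 764 CPM, and the ACEi mice A11, A13 and A23 had 670, 611 and 718 CPM. The anti-miR-21 range overlapped that of Veh and the ACEi range did not. Both differences from Veh were called, at -0.95 (SE 0.18, adjusted p = 0.000138) and -1.16 (SE 0.23, adjusted p = 0.000559) on the log2 scale, and all 9 treated mice remained above every WT mouse.

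Lpl encodes lipoprotein lipase, which frees fatty acids from circulating triglyceride at the vessel wall. WT mice had 1047 CPM in A3, 1082 in A6, 942 in A14, 868 in A17 and 1224 in A18, and Veh mice had 99.2 CPM (A19) to 189 CPM (A16) with a median of 134 CPM. With a log2 fold change of -2.84 (SE 0.19, adjusted p = 7.86e-11) it was, after Cd36, the gene of the 10 that fell most. It was at 302 CPM (A8) to 637 CPM (A22) with a median of 456 CPM after anti-miR-21, and at 443, 437 and 347 CPM in the ACEi mice A11, A13 and A23. These 9 mice lay above all Veh and below all WT mice, by 1.67 (SE 0.18, adjusted p = 2.27e-07) and 1.51 (SE 0.21, adjusted p = 2.29e-05) on the log2 scale against Veh.

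Angptl4 encodes a secreted inhibitor of lipoprotein lipase, and its groups overlapped throughout. WT mice ranged widely, with 69.8 CPM in A3, 29.5 in A6, 32.1 in A14, 53.7 in A17 and 39.6 in A18, and the Veh mice ranged from 29 CPM (A19) over a median of 66.5 to 77.3 CPM (A4). The difference of 0.46 on the log2 scale had a 95% interval from -0.04 to 0.96 (adjusted p = 0.0853). It passed the test without the WT mouse A3 (0.67, adjusted p = 0.0142) or without the Veh mouse A19 (0.61, adjusted p = 0.0102), and with library totals alone (1.05, adjusted p = 0.000287), so these data do not settle whether Angptl4 was higher. Anti-miR-21 and ACEi differed from Veh by 0.18 (adjusted p = 0.493, interval -0.29 to 0.65) and 0.13 (adjusted p = 0.735, interval -0.45 to 0.70).

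Fabp1 encodes the fatty acid binding protein of liver, which is also the isoform reported for human proximal tubule. It had 368 counts over all 20 mice. In WT mice A3, A6, A14, A17 and A18 it had 2, 4, 7, 30 and 56 counts, and in Veh mice 4 to 85 counts, so that single mice set the group means. The 3 mice with the highest summed liver markers (111 CPM in WT A18, 83.8 in WT A17 and 77.2 in Veh A20) were among the 4 with the most Fabp1, at 2.35, 1.23 and 2.40 CPM, while the fourth, the anti-miR-21 mouse A8 at 1.31 CPM, had a liver marker sum within the 5.86 to 8.53 CPM of its group. The part of liver RNA in these values was not tested. No difference in Fabp1 was called, with -0.52 (SE 0.86, adjusted p = 0.597) for Veh against WT and an interval from -2.34 to 1.30, and without A20 that value became -1.95 (adjusted p = 0.0365). At these counts a change in Fabp1 was not measurable.

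Fabp3 encodes the heart-type fatty acid binding protein, which carries fatty acids in the cytosol of oxidative cells. Its WT levels were 40.9 CPM in A3, 37 in A6, 42.4 in A14, 41 in A17 and 46.9 in A18, against 10.5 CPM (A19) to 23.8 CPM (A16) with a median of 13.7 CPM in Veh. All WT mice were thus above all Veh mice, and the log2 fold change was -1.48 (SE 0.15, adjusted p = 1.72e-08). Anti-miR-21 mice had 25.1 CPM (A8) to 34.8 CPM (A15) with a median of 30 CPM, and the ACEi mice 22.4, 29 and 26.8 CPM. The ACEi mouse A11, at 22.4 CPM, lay below the Veh mouse A16, so the ACEi and Veh ranges overlapped, although the difference was called (0.80, SE 0.17, adjusted p = 0.00093). The anti-miR-21 difference was 0.98 (SE 0.14, adjusted p = 7.43e-06). The Fabp3 locus (chromosome 4, 130308595 to 130315463) overlaps Gm10570 and Zcchc17, and the counting rule for shared reads is not given in the sources used here.

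Dgat2 encodes an enzyme of the last step of triglyceride synthesis. WT mice had 288 CPM in A3, 226.6 in A6, 232 in A14, 239 in A17 and 243 in A18, and Veh mice 49.7 CPM (A9) to 95.5 CPM (A4) with a median of 67 CPM. The log2 fold change was -1.81 (SE 0.17, adjusted p = 8.17e-09). Its isoenzyme Dgat1 stood at 33.6 ± 1.12 CPM (SD) in the 5 WT mice and at 34.4 ± 4.31 CPM in the 6 Veh mice, a log2 difference of 0.03 (SE 0.08, adjusted p = 0.694). Anti-miR-21 mice had 144 CPM (A8) to 260 CPM (A12) of Dgat2 with a median of 178 CPM, and the ACEi mice A11, A13 and A23 had 135, 170 and 142 CPM. Anti-miR-21 mice were above Veh by 1.39 (SE 0.16, adjusted p = 6.93e-07) and ACEi mice by 1.09 (SE 0.19, adjusted p = 0.000208). The anti-miR-21 mouse A12 alone entered the WT range, and A12 was also the treated mouse with adipocyte markers.

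Plin2 encodes perilipin 2, the droplet coat found in most cells that store lipid outside fat tissue. It moved opposite to Dgat2, with 74.1 CPM in A3, 67.1 in A6, 69.8 in A14, 61.4 in A17 and 60.2 in A18 among WT mice and 118 CPM (A20) to 166 CPM (A1) with a median of 135 CPM in Veh. The log2 fold change was 1.05 (SE 0.09, adjusted p = 3.03e-09). Anti-miR-21 mice had 87.5 CPM (A2) to 118 CPM (A10) with a median of 103 CPM, whose highest mouse just overlapped the lowest Veh mouse, and were lower than Veh by 1.36-fold (log2 -0.45, SE 0.09, adjusted p = 0.000177). The ACEi mice had 96.1, 114 and 117 CPM in A11, A13 and A23 (log2 -0.34, SE 0.11, adjusted p = 0.0173). This was the weakest call of the 10 genes against Veh: it was lost without the Veh mouse A1 (-0.25, adjusted p = 0.0553), without the ACEi mouse A11 (-0.25, adjusted p = 0.127) and without the 4 mice rich in adipocyte markers (-0.22, adjusted p = 0.17).

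Anti-miR-21 against Veh asks what blocking miR-21 does to these genes in knockout kidneys. Cd36, Lpl, Dgat2, Fabp3 and Vldlr rose, by 3.99-, 3.19-, 2.62-, 1.97- and 1.53-fold, and Msr1, Apoe and Plin2 fell. Veh against WT uses the same 6 Veh mice, so opposite signs in these 2 comparisons are not independent. These 8 calls stand against 59.2% of all genes called (28.8% higher and 30.5% lower). The groups were clear of each other for 6 of the 10, against 36.4% of all genes. ACEi against Veh shares the 6 Veh mice with this comparison, so the values of both rest in part on the same animals. Under ACEi the 5 genes that rose were Cd36 by 4.02-fold, Lpl by 2.85-fold, Dgat2 by 2.12-fold, Fabp3 by 1.74-fold and Vldlr by 1.37-fold, and Msr1, Apoe and Plin2 fell, against 40.1% of all genes called (21% higher and 19.1% lower). No ACEi mouse overlapped a Veh mouse for 7 of the 10, against 38.6% of all genes.

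**Figure D2:**
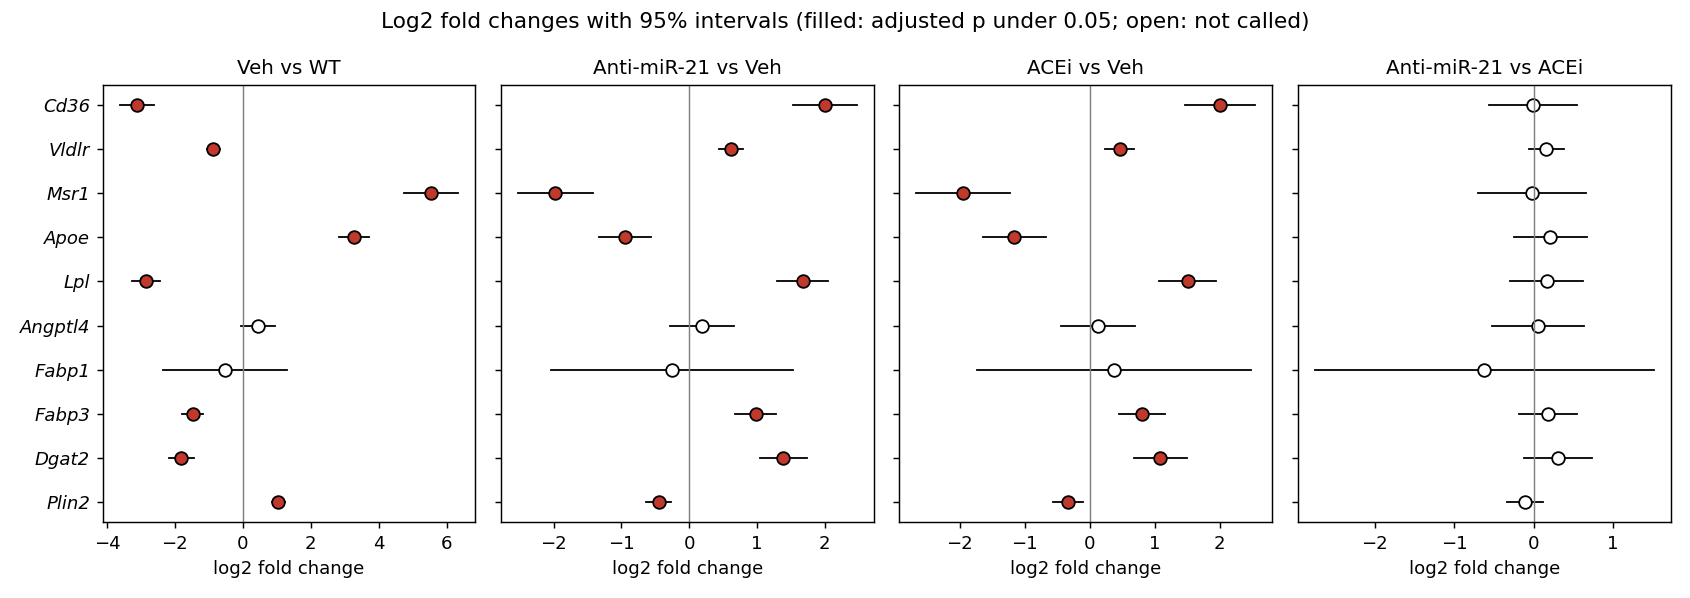
Log2 fold change of each gene with its 95% interval in 4 comparisons, filled where the adjusted p was under 0.05 and open where it was not. The 8 filled points of Veh vs WT have filled points on the other side of 0 in both treatments against Veh, which use the same Veh mice, while all 10 points of anti-miR-21 against ACEi are open.

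Libraries came from 2 flow cells, and the values were also fitted within each. In flow cell A (13 libraries) 8 of the 10 genes were called for Veh against WT, 8 for anti-miR-21 against Veh and 7 for ACEi against Veh. Flow cell B (7 libraries) gave 8, 0 and 4. Of all genes tested, 65.2%, 53.5% and 16.6% were called in these comparisons in flow cell A and 50.1%, 2.33% and 7.35% in flow cell B. It held 1 anti-miR-21 mouse, and flow cell A held 1 ACEi mouse, for which the spread of the other groups was assumed. In flow cell B the anti-miR-21 mouse A10 differed from Veh on the log2 scale by 1.19 for Cd36 and 1.42 for Lpl. For Dgat2, Fabp3 and Vldlr this was 0.91, 0.41 and 0.38. Msr1, Apoe and Plin2 were at -1.03, -0.32 and -0.085 there, against -1.97, -0.95 and -0.45 with all mice.

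Between the treatments, 0 of the 10 genes were called with edgeR's quasi-likelihood test, as with DESeq2 and limma, and 0 had an unadjusted p under 0.05. Of all genes, 0.584% were called with edgeR after adjustment (0.363% higher and 0.221% lower after anti-miR-21). Differences of anti-miR-21 from ACEi ran from -0.62 for Fabp1 to 0.30 for Dgat2 (adjusted p = 0.504) on the log2 scale. The 95% interval was -0.57 to 0.55 for Cd36, -0.12 to 0.73 for Dgat2 and -0.06 to 0.38 for Vldlr, and differences within those bounds were not measurable with 6 and 3 mice. None of the 10 genes separated these 9 mice by treatment, against 8.99% of all genes.

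The treated kidneys still differed from WT. After anti-miR-21, 4 genes were higher (Msr1 by 12-fold, Apoe by 5.06-fold, Angptl4 by 1.56-fold with an adjusted p of 0.0332, and Plin2 by 1.52-fold) and 4 were lower (Lpl by 2.25-fold, Cd36 by 2.18-fold, Fabp3 by 1.41-fold and Vldlr by 1.19-fold), where 43.7% of all genes were called (23.9% higher and 19.8% lower). The Angptl4 call was lost without any 1 of the mice A6, A14, A18, A10 and A12 (log2 0.52 to 0.60, adjusted p from 0.0681 to 0.0892), and the Vldlr call without any 1 of A3, A6, A8 and A10 (log2 -0.18 to -0.23, adjusted p from 0.0618 to 0.0968). Dgat2 was just outside (log2 -0.42, adjusted p = 0.0502), and was called without A12 (-0.54, adjusted p = 0.0103). Without the 4 mice rich in adipocyte markers Dgat2 was called (-0.52, adjusted p = 0.00573). Vldlr (-0.22, adjusted p = 0.0527) and Angptl4 (0.57, adjusted p = 0.0701) were then not called. Under ACEi, 3 were higher (Msr1 by 12.2-fold, Apoe by 4.37-fold and Plin2 by 1.64-fold) and 5 were lower (Lpl by 2.52-fold, Cd36 by 2.17-fold, Dgat2 by 1.65-fold, Fabp3 by 1.6-fold and Vldlr by 1.33-fold), where 47.7% of all genes were called (25.2% higher and 22.5% lower). The mice of the 2 groups were clear of each other for 8 of the 10 genes under ACEi and 6 after anti-miR-21, against 46.1% and 23.8% of all genes. Angptl4 stood at 0.59 (adjusted p = 0.0889), and was called without the WT mouse A3 (0.81, adjusted p = 0.0194). With library totals alone the differences from WT were not called for Vldlr and Fabp3 in either treated group, nor for Dgat2 under ACEi (-0.41, adjusted p = 0.0536).

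How far each gene had moved back was described as the share of the gap between the Veh and WT means, on the log2 scale, that the treated mice had crossed. On that scale the genes that were low in Veh had crossed more of it. After anti-miR-21 the mean share was 75.9% for Dgat2, 71.6% for Vldlr, 67% for Fabp3, 64.2% for Cd36 and 57.6% for Lpl. It was 42.8% for Plin2, 38.3% for Msr1 and 28.6% for Apoe. Under ACEi the shares ran from 53.5% for Lpl to 65.6% for Cd36 among the 5 low genes and from 32% for Plin2 to 36.4% for Msr1 among the 3 high ones. The order of the genes depends on the scale. In CPM the mean of Msr1 was 14.8 in Veh, 3.76 after anti-miR-21 and 0.31 in WT, most of the way back. Cd36 was at 102, 407 and 886 CPM in the same groups, a smaller part of its gap in CPM. These shares use the same Veh and WT means for both treatments and were not tested.

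Levels between genes were compared per length, in FPKM as deposited. In WT kidneys Cd36 led with 213 ± 26.4 FPKM (SD, n = 5), followed by Lpl (124), Apoe (100) and Dgat2 (89.9), whose ranges overlapped their neighbours, then by Fabp3 (49.9), Plin2 (28.8) and Angptl4 (19.3), and by Vldlr (7.31), Fabp1 (1.40) and Msr1 (0.077). In Veh kidneys the order was headed by Apoe with 1486 ± 458 FPKM (SD, n = 6) and Plin2 with 90.1 ± 12 FPKM. Angptl4 (40.3), Dgat2 (38.6), Cd36 (36.5), Fabp3 (26.1) and Lpl (22.5) followed with ranges that overlapped from each to the next. Cd36 thus moved from the first place to the fifth, Lpl from the second to the seventh and Plin2 from the sixth to the second. In both treated groups Apoe was first and Cd36 second, at 609 and 115 FPKM after anti-miR-21 and 546 and 122 FPKM under ACEi. FPKM is scaled to library totals, and the Vldlr ranges of WT (6.37 to 8.92 FPKM) and Veh (5.00 to 6.86 FPKM) overlapped on that scale. The authors' annotation flags the FPKM entry of Lpl as confounded.

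**Figure D3:**
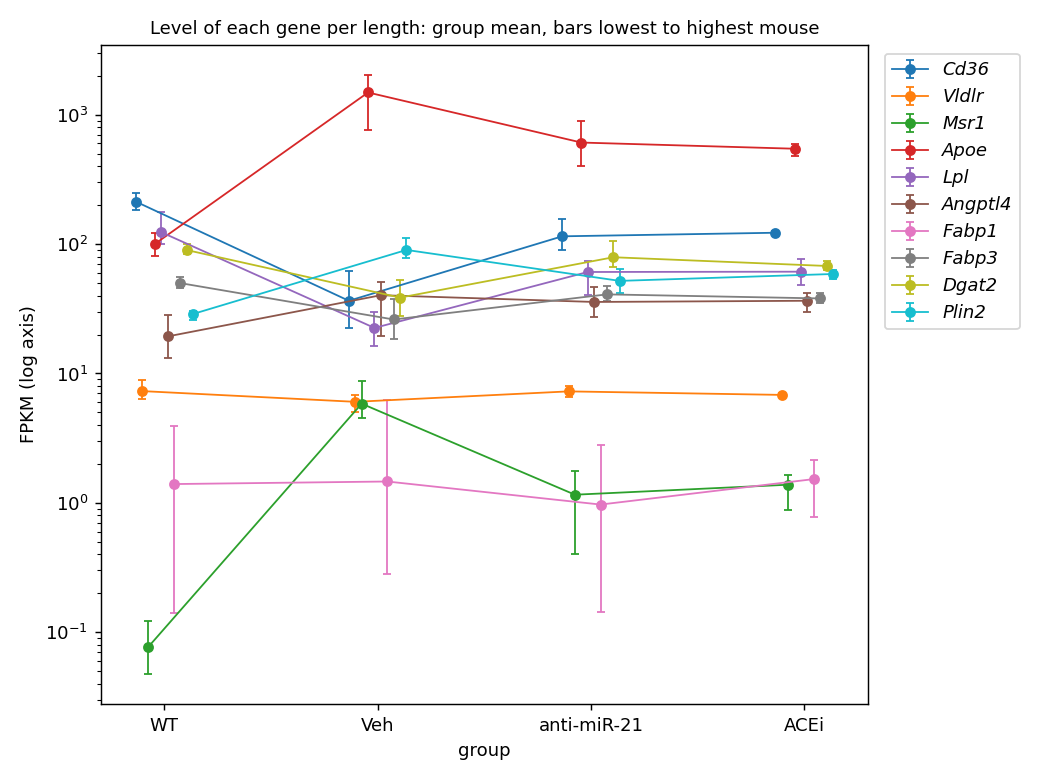
Level per length of each gene in FPKM on a log axis for the 4 groups, with a point at the group mean and a bar from the lowest to the highest mouse. Apoe is the highest gene in the 3 knockout groups, and Cd36 is the highest in WT with 213 FPKM and in the middle of the order in Veh with 36.5 FPKM.

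A list of 53 other genes of lipid uptake, synthesis, storage and breakdown was read for the same comparisons, and 51 of them were tested. In Veh against WT 17 rose and 23 fell, beside the 39% and 34% of all genes given above, and 11 did not pass. The roles differed in direction. Of 7 lipoprotein receptors and scavengers 6 rose and 0 fell: Lrp1, the large endocytic receptor for Apoe, averaged 59.6 ± 17.5 CPM (SD) over the 5 WT mice and 304 ± 33.2 CPM over the 6 Veh mice, and Stab1, a scavenger receptor of macrophages and sinusoids, and Scarb1, the HDL receptor, rose by 4.26- and 2.69-fold. Of 12 genes of glycerolipid synthesis 0 rose and 9 fell, among them the monoacylglycerol acyltransferases Mogat1 and Mogat2 by 5.62- and 6.06-fold.

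The other roles were mixed. Of 8 droplet proteins 3 rose and 5 fell, with Plin3 (log2 0.52), Hilpda, an inhibitor of triglyceride lipase (1.34), and Plin4 (1.89, adjusted p = 0.0111) higher, and Plin5 (-1.02), Cideb (-2.02) and Fitm1, which helps droplets form (-2.72), lower. Of 12 genes of fatty acid transport and activation 5 rose and 5 fell. Slc27a2, the very long chain fatty acid transporter and acyl-CoA synthetase of the proximal tubule, fell by 6.36-fold, with a mean of 4924 ± 607 CPM (SD) over 5 WT mice against 774 ± 298.6 CPM over 6 Veh mice, whereas Fabp4 and Fabp5, the adipocyte and epidermal binding proteins, rose by 1.27 and 0.81 on the log2 scale. Of 7 lipases and their partners 3 rose, with the endothelial lipase Lipg at 1.99, and 2 fell. Of 5 breakdown genes 0 rose and 2 fell, with Pnpla2, the adipose triglyceride lipase, at -0.13 (adjusted p = 0.515) and its inhibitor G0s2 at -0.22 (adjusted p = 0.145). Gpihbp1, which holds Lpl at the capillary wall, did not pass, at 0.24 (adjusted p = 0.277).

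**Figure D4:**
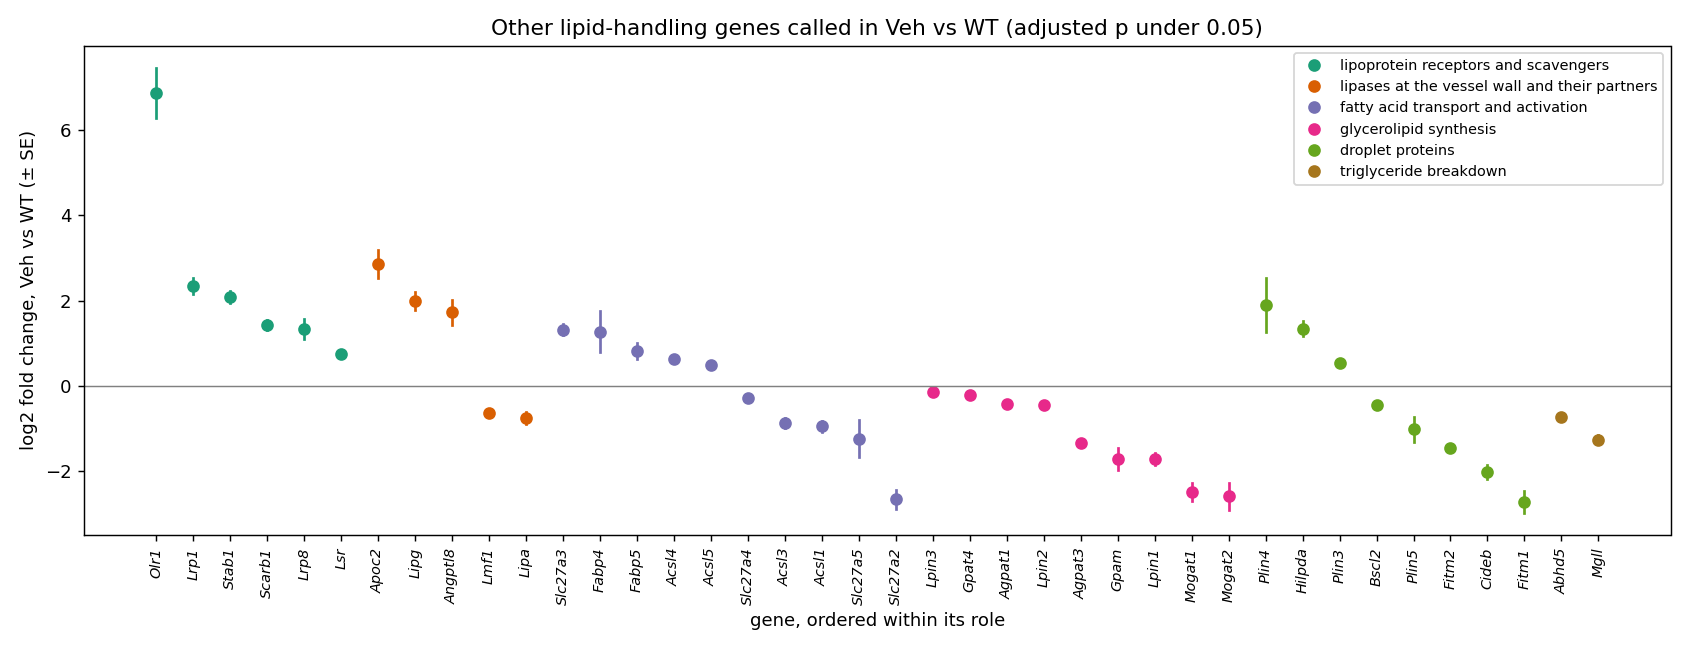
Log2 fold change with its SE in Veh against WT for the 40 other lipid-handling genes with an adjusted p under 0.05, coloured by role and ordered within it. The receptors and scavengers shown all sit above 0, and the genes of glycerolipid synthesis shown all sit below 0.

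Olr1, a receptor for oxidised LDL that is the highest point of that plot and was singled out after its values were seen, had 4 counts over the 5 WT mice and 120 counts or more in each of the 6 Veh mice. The ratio of the summed counts per scaled library was 132, with a 95% counting interval from 51.4 to 486 that covers counting error only.

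Against Veh, 22 of the 51 genes rose and 14 fell after anti-miR-21, and 17 rose and 14 fell under ACEi, beside 28.8% higher and 30.5% lower of all genes after anti-miR-21 and 21% and 19.1% under ACEi. Glycerolipid synthesis had 7 genes higher and 0 lower in each of these comparisons, and the receptors and scavengers 0 higher and 6 lower in each. Slc27a2 was higher by 1.97 (SE 0.20) and 1.48 (SE 0.23), Mogat1 by 1.90 (SE 0.21) and 1.62 (SE 0.23), and Fitm1 by 2.40 (SE 0.24) and 1.75 (SE 0.28) on the log2 scale after anti-miR-21 and under ACEi. Lrp1 was lower by 0.91 and 0.76 and Hilpda by 1.0 and 0.87. Of the 51 genes, 0 were called between the treatments with edgeR and 1 with DESeq2, beside 0.584% and 2.48% of all genes. With edgeR 10 of the 51 had an unadjusted p under 0.05. The share of all genes under that unadjusted limit was not computed, so nothing is read from this count.

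The balance of this list varied with the scaling. When counts were scaled by library totals only, the median over all genes in Veh against WT went from a log2 fold change of 0.07 to 0.65, the share of higher genes among the calls from 53.4% to 81.2%, and the list from 17 higher and 23 lower to 29 and 13, with glycerolipid synthesis at 5 and 5. The receptors and scavengers stayed at 6 and 0, and the 8 called members kept their directions, with Cd36 at -2.56, Lpl at -2.27, Dgat2 at -1.23, Fabp3 at -0.91, Plin2 at 1.64, Apoe at 3.88 and Msr1 at 6.14. Against Veh, the share of higher genes among all calls also varied with the scaling. It went from 48.6% to 20% after anti-miR-21 and from 52.4% to 20.5% under ACEi with library totals alone. The splits of the list against Veh are given above with TMM scaling only.

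Of the regulators, Ppara, the receptor that drives fatty acid oxidation, averaged 4.85 ± 0.55 CPM (SD) over the 5 WT mice and 2.24 ± 0.83 CPM over the 6 Veh mice (log2 -1.12, SE 0.21, adjusted p = 7.18e-05) and was higher than in Veh by 1.03 (SE 0.20, adjusted p = 0.000197) after anti-miR-21 and by 0.92 (SE 0.24, adjusted p = 0.00461) under ACEi. Ppard (-1.42), the partner receptor Rxra (-0.99) and the oxysterol receptor Nr1h3 (-1.21) were also lower in Veh than in WT. Rxra and Nr1h3 were higher than in Veh in both treated groups, and Ppard after anti-miR-21 (0.94, adjusted p = 0.0126), with 0.25 (adjusted p = 0.614) under ACEi. Pparg, the receptor of fat cells, was higher in Veh (1.21, SE 0.30, adjusted p = 0.00109). Srebf1, the regulator of fatty acid synthesis, did not pass (0.14, adjusted p = 0.255).

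In Veh against WT 5 of 6 adipocyte markers rose, and in ACEi against Veh 5 of 6 fell. Without the 4 mice rich in them, which leaves 3 Veh and 5 anti-miR-21 mice, 3 members still rose and 5 fell in Veh against WT. Fabp4 (-0.33, adjusted p = 0.22), Plin4 (-0.10, adjusted p = 0.807) and Pparg (0.38, adjusted p = 0.0622) were then no longer called, and the 51 genes gave 15 higher and 23 lower in Veh against WT and 15 higher and 6 lower in ACEi against Veh. Over all genes 67.7% and 26.7% were called in these comparisons without the 4 mice, and 52.4% and 66% of those calls were higher.

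Markers of other cell types moved with the same groups. The 7 macrophage markers all rose in Veh, with a summed level of 142 to 156 CPM in WT, 855 to 1049 in Veh, 354 to 537 after anti-miR-21 and 468 to 557 under ACEi. The 6 proximal tubule markers all fell, from 11726 to 15086 CPM in WT to 1320 to 3671 in Veh, with 6431 to 10708 after anti-miR-21 and 6707 to 8783 under ACEi. Fibroblast markers were at 109 to 250 CPM in WT and 1485 to 1793 CPM in Veh. The 2 tubule injury markers, Havcr1 and Lcn2, summed to 14.2 to 31 CPM in WT, 501 to 1016 in Veh, 145 to 331 after anti-miR-21 and 287 to 317 under ACEi. None of these lists had a marker at 0 in any mouse, and their part in the members' changes was not tested.

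**Figure D5:**
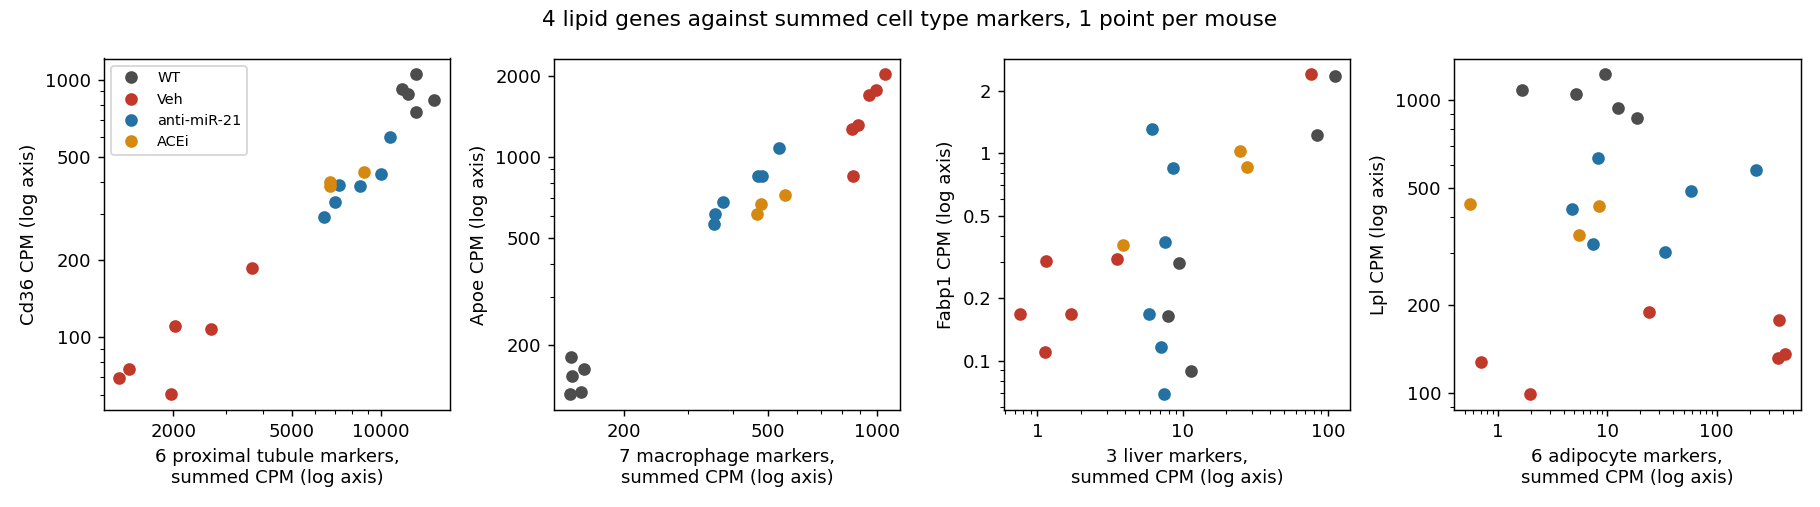
Level of Cd36, Apoe, Fabp1 and Lpl in CPM against the summed CPM of markers of proximal tubule, macrophage, liver and adipocyte, on log axes with 1 point per mouse coloured by group. Cd36 is highest in the WT mice, where the proximal tubule sum is highest, Apoe is highest in the Veh mice, where the macrophage sum is highest, the 3 highest liver sums fall on mice with high Fabp1, and Lpl shows no clear order with the adipocyte sum.

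Over the 20 mice, which share their groups, Pearson's r of log2 CPM with the summed proximal tubule markers was 0.98 for Cd36, 0.96 for Dgat2, 0.95 for Fabp3, 0.94 for Lpl and 0.94 for Vldlr. For Msr1, Apoe and Plin2 it was 0.98, 0.97 and 0.95 with the summed macrophage markers, 0.97, 0.95 and 0.93 with the fibroblast markers and 0.96, 0.97 and 0.94 with the tubule injury markers. After the mean of each group was taken off, so that only mice within a group were set against each other, r was 0.80 for Cd36, 0.66 for Dgat2, 0.64 for Fabp3, 0.54 for Lpl and 0.53 for Vldlr with the tubule sum, and 0.74, 0.78 and 0.32 for Msr1, Apoe and Plin2 with the macrophage sum. Plin2 reached 0.43 with the tubule injury sum and -0.63 with the thick ascending limb sum within groups. Other pairings were stronger within groups for some genes: Apoe was at -0.89 with the proximal tubule sum and Lpl at -0.78 with the macrophage sum. Vldlr was at 0.65 with the podocyte sum, and Cd36 was also at 0.70 with the thick ascending limb sum. These values therefore do not assign a gene to a cell type. Cd36 and Apoe ran opposite to each other over all mice and within groups, with r = -0.90 on both measures. These are descriptions over 20 libraries and carry no test.

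The genes most like each member over the 20 mice, among 13163 genes whose mean reached 1 log2 CPM, were as follows. Cd36 was most like C1qtnf3 (r = 0.997), Cyp4a12a (0.996) and Bdh1 (0.995), and these remained the closest 3 within groups, at r = 0.96 each. Dgat2 was most like Gpd1 (0.995), the cytosolic glycerol-3-phosphate dehydrogenase, which was also the closest within groups (0.965). Vldlr was most like Vdr, the vitamin D receptor (0.983 overall and 0.895 within groups). Among the 3 genes most like Apoe were Trem2 (0.990), a lipid receptor of macrophages, and Kif1a (0.986), and within groups it was most like Spns2 (0.925) and Gpnmb (0.870).

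For the other members Msr1 was most like Golm1 (0.987), Lpl like Poldip2 (0.986), Fabp3 like 0610006L08Rik (0.981) and Plin2 like Rras (0.975). Angptl4 and Fabp1 had no close match. Angptl4 reached 0.696 with Ppm1g overall and 0.747 with the droplet protein Plin5 within groups, and Fabp1 reached 0.677 overall and 0.749 within groups with Alb, the albumin gene of liver.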

How the data were processed

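Per the labels, kidney RNA of 20 mice was sequenced as paired-end reads, and groups follow the group name of each sample. Replicates are different mice. The authors used the OmicSoft aligner against GRCm38 and deposited an estimated count (expected count) per Ensembl gene, of which 29.1% of positive values are not whole. They also deposited FPKM for 33368 entries, normalised for length and library total. Of the FPKM columns, 3 could not be matched to a sample and were not used.

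Counts were rounded, filtered with filterByExpr (minimum count 10, minimum total 15), scaled by TMM and tested in edgeR 4.0.16 (R 4.3.3) by its quasi-likelihood test over all 17622 genes, with p-values adjusted after Benjamini and Hochberg and called under 0.05. All 4 groups were fitted together. CPM used the TMM-scaled totals and log2 CPM a prior count of 2. Alternatives were DESeq2 1.42.0, limma 3.58.1 on log2(FPKM + 1) and log2(FPKM + 0.1), other scalings and filters, flow cell, an adipocyte term and each mouse left out. Leaving out the mice with over 200 CPM of adipocyte markers was chosen after seeing the data. The members and lists were chosen with earlier results of these data known. All 10 members were named, and other lipid genes were named as up to 5 called genes that rose most and up to 5 that fell most in Veh against WT at a mean log2 CPM of 1 or more, beside chosen partners and regulators, and a few of these are not reported here. On simulated counts the edgeR test recovered 93.9% of genes changed by 2 on the log2 scale and 78% of those changed by 1 between Veh and WT, with 1.73% of calls false. These were 90.8%, 74.2% and 6.94% for anti-miR-21 against Veh and 91.9%, 66.7% and 5.99% for ACEi against Veh, with false calls above the 5% set. Each comparison was simulated in a single run. For Veh against WT that run changed 98 genes by 2 and 100 by 1, of 17248, whereas 73% of genes were called in the real comparison. The simulated rates therefore need not hold for these data. Promoters and the miRNA are from RefSeq (GRCm38.p6), and 3′ UTRs from the GENCODE annotation of GRCm38. Plots were drawn with matplotlib 3.10.9.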

Additional observations from a re-analysis of the deposited data

Results flagged for a closer look

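Of 30 groups of 5 or 6 mice checked over the 10 genes, 2 held a mouse far from the others by Dixon's ratio at the 95% level, a rate that chance alone gives in about 1 in 20 groups. Angptl4 in the Veh mouse A19 was at 4.86 log2 CPM, or 29 CPM, against 62.3 to 77.3 CPM in the other 5 Veh mice (ratio 0.779). Fabp1 in the Veh mouse A20 was at 1.30 log2 CPM, or 2.40 CPM, against 0.111 to 0.309 CPM in the other 5 (ratio 0.716), and A20 was the Veh mouse with the highest summed liver markers, 77.2 CPM.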

How the results depend on the processing

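No paired analysis was possible because every mouse has a name of its own that no mouse of another group shares. The 8 members called in Veh against WT and in anti-miR-21 against Veh kept their direction under every setting in which they were tested. They also kept their call there except, for anti-miR-21, in flow cell B alone, which holds 1 such mouse. For ACEi against Veh the Vldlr call was also lost with both limma fits (0.16 and 0.18, adjusted p = 0.17 and 0.164). The Plin2 call was also lost with an adipocyte term (-0.26, adjusted p = 0.0718). In flow cell B alone, Vldlr (0.38, adjusted p = 0.0615), Plin2 (-0.26, adjusted p = 0.218), Apoe (-0.72, adjusted p = 0.0758) and Fabp3 (0.39, adjusted p = 0.296) were not called for ACEi. Msr1, with 4 counts in the WT mouse A3, was not tested where at least 10 counts were asked of every mouse. Of the counts of called genes, 7 moved by over 1.5 times: in flow cell B alone the members called were 0 for anti-miR-21 against Veh and 4 for ACEi against Veh, and the other lipid genes called were 1 and 8 for these comparisons and 8 for anti-miR-21 against WT, in flow cell A alone 13 for ACEi against Veh, and with DESeq2 1 between the treatments. Fewer samples entered the fits within a flow cell. Leaving out 1 mouse at a time gave 8 to 9 called members for Veh against WT, 8 for anti-miR-21 against Veh, 7 to 8 for ACEi against Veh, 0 between the treatments, 6 to 8 for anti-miR-21 against WT and 8 to 9 for ACEi against WT. Of all genes, 70.9% to 72.8%, 54.8% to 58.9%, 27.6% to 41.7%, 0.117% to 1.22%, 37.8% to 45.1% and 38.1% to 47.8% were called in these fits, in the same order. The other lipid genes called for ACEi against Veh were 21 (without ACEi A13) to 33 (without Veh A16). Of all genes, 27.6% were called without A13 and 41.7% without A16. The order of levels per length was unchanged when FPKM was divided by the TMM factors. On the log2 scale 38 values changed sign under settings that kept all mice or left out a set of them, and 19 more with 1 mouse left out, none of them called in the main setting, and the cause was not tested. With limma on log2(FPKM + 1) and log2(FPKM + 0.1) they were Angptl4 in anti-miR-21 against Veh (-0.14 and -0.14), in ACEi against Veh (-0.094 and -0.094) and between the treatments (-0.045 and -0.046), Lpl between the treatments (-0.0068 and -0.0069) and Fabp1 in ACEi against WT (0.28 and 0.80). With library totals alone they were Angptl4 in the same 3 comparisons (-0.16, -0.14 and -0.027) and Fabp1 in Veh against WT (0.064) and ACEi against WT (0.15). With flow cell as a term they were Fabp1 in anti-miR-21 against Veh (0.65), ACEi (0.091) and WT (0.28) and in ACEi against WT (0.19), and Cd36 between the treatments (0.15). In flow cell A alone Fabp1 was at 0.043 in Veh against WT, 1.58 in anti-miR-21 against Veh, 1.63 in anti-miR-21 against WT and 2.48 in ACEi against WT, and between the treatments Cd36 was at 0.11 and Angptl4 at -0.059. In flow cell B alone Fabp1 was at -1.16 in ACEi against Veh, and between the treatments Msr1 was at 0.73, Lpl at -0.055, Dgat2 at -0.055 and Plin2 at 0.17. With an adipocyte term Fabp1 was at 0.17 in anti-miR-21 against Veh, and between the treatments Cd36 was at 0.013 and Angptl4 at -0.090. Without the 4 mice rich in adipocyte markers Fabp1 was at 0.28 in Veh against WT and -0.40 in ACEi against Veh, and between the treatments Msr1 was at 0.023 and Angptl4 at -0.046. With 1 mouse left out, Fabp1 ranged from -1.95 to 0.36 in Veh against WT, -0.87 to 1.20 in anti-miR-21 against Veh, -1.39 to 0.11 in anti-miR-21 against WT and -0.44 to 0.73 in ACEi against WT, and between the treatments Cd36 ranged from -0.15 to 0.070, Msr1 from -0.26 to 0.13 and Angptl4 from -0.041 to 0.14. Limits on what was measured came from the 3 ACEi mice, from the few counts of Fabp1 and of Msr1 in WT, and, for the smaller differences of the treated groups from WT, from the scaling, the filter and single mice.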
